A study of Mus musculus with 6 samples.

Results

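The J-distal IGKV genes are the kappa chain V genes that lie farthest from the IGKJ segments. A clonotype, which is a distinct nucleotide sequence of CDR3 together with its V and J gene, was taken as a member when the number after the dash in its first V hit was 96 or more, and the genes of the IGKV10, IGKV17 and IGKV19 families were left out. This gave 22 of the 102 IGKV genes found, with 331 of 1818 kappa clonotypes from the iB-μMT mouse (the iB library) and 325 of 1696 from the B6 mouse (the B6 library). The kappa libraries are 2 of the 6 libraries of the study, which asked whether B cells regenerated from embryonic stem cells possess a diverse BCR repertoire. In both mice, splenic naïve follicular (FO) B cells were isolated by sorting on surface markers, and cDNA ends were amplified from total RNA. The iB-μMT mouse was an adult μMT recipient (B6.129S2-Ighm tm1Cgn, which lacks mature B cells of its own) that had been irradiated and transplanted with hematopoietic progenitors (iHPC). These came from iR9X2-ESC, a C57BL/6 embryonic stem cell line with a CAG-driven GFP in Hipp11 and a doxycycline-inducible Runx1, Hoxa9 and Lhx2 cassette in Rosa26, and the cells were taken at week 4 after transplantation. Recipients drank water with doxycycline, which switches the cassette on, and no such treatment of the control is described. The control was 1 untransplanted C57BL/6 mouse (B6, labelled WT), whose age is not given in the sources used here. With 1 library per mouse there was no replicate check, and each test compares the clonotypes of these libraries, not the conditions.

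The kappa light chain is made by joining 1 of many IGKV genes directly to 1 of the functional IGKJ genes, without a D segment. A join can be replaced later, because a V gene farther upstream can recombine with a J gene farther downstream, which removes or inverts the first join. The use of IGKJ1 or IGKJ5 is therefore commonly read beside the position of V. Because of their distance, J-distal V genes need long-range contraction of the locus to reach IGKJ.

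The label was checked against the map of the locus. All 22 genes matched RefSeq entries on chromosome 6 of GRCm38.p6, between 67555636 and 68571235, and IGKJ1 starts at 70722562. The nearest member, IGKV12-98 (chromosome 6, 68570763 to 68571235), lay 2151 kb from IGKJ1, and the farthest, IGKV2-137 (67555636 to 67556216), lay 3166 kb from it. No RefSeq gene numbered below 96 lay beyond the nearest member, and the order by number matched the order on the map for every adjacent pair of members. RefSeq lists 23 V segments and 21 pseudogenes in this stretch outside the left-out families. Of the V segments, 20 were found, and IGKV1-131, IGKV14-130 and IGKV20-101-2 were the first hit of no clonotype. Of the pseudogene entries, 2 were found, IGKV14-126 and IGKV11-106. Every member clonotype carried an IGKC hit except 1 clonotype of the B6 library that had no C hit. The tables hold no markers of cell type, so the sort could not be checked from them. At the threshold itself, IGKV12-98 (10 clonotypes in the iB library and 12 in the B6 library) and IGKV1-99 (14 and 13) were just inside. Apart from the left-out families, IGKV4-92 (7 and 7) and IGKV4-91 (38 and 32) were just outside. Between IGKV4-92 and IGKV12-98 lie the left-out IGKV19-93 (44 and 45), IGKV10-94 (14 and 13), IGKV10-95 (5 and 7) and IGKV10-96 (32 and 36).

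The sequences below are the CDR3 of the clonotype with the most reads, summed over both mice, for the 8 J-distal genes with the most clonotypes. They are shown as the leading join of each gene, and together held 17.3% of the J-distal reads in the iB library and 19.5% in the B6 library. Lower case letters come from the V gene and capitals mark the bases after the V end.
IGKV1-110 to IGKJ1: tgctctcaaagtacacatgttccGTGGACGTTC
IGKV1-135 to IGKJ1: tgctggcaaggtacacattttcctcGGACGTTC
IGKV14-111 to IGKJ2: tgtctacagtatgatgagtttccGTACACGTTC
IGKV1-117 to IGKJ1: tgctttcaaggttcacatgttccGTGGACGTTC
IGKV14-126 to IGKJ2: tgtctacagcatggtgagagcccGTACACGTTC
IGKV2-109 to IGKJ1: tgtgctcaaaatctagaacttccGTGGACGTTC
IGKV9-120 to IGKJ2: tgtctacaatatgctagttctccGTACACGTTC
IGKV9-124 to IGKJ1: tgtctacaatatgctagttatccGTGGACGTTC
All 8 had 33 nucleotides, which is 11 amino acids, and none had a base between the V and J ends. The IGKV1-117 join had the most reads of any J-distal clonotype in both mice, 3719 in the iB library (0.661% of the kappa reads) and 4270 in the B6 library (0.799%). The IGKV14-111 join followed in the iB library with 3264 reads (0.58%), and had 3435 (0.643%) in the B6 library. Of the 21 genes found in both mice, 16 had the same leading clonotype in each.

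The 2 libraries shared many clonotypes, meaning the same CDR3 nucleotides, V gene and J gene. Among the J-distal clonotypes, 186 were found in both mice, 56.2% of those of the iB library and 57.2% of those of the B6 library. They held 95.9% and 96.2% of the J-distal reads, respectively. The median was 139 reads per shared clonotype against 19 per clonotype found only in the iB library, and 136 against 13 in the B6 library. Whether the same join arose in both mice or reads passed from one library to the other was not tested. Shares of the J-distal set are therefore given below with and without the shared clonotypes, and values of single genes are over all clonotypes unless stated. A clonotype with the same CDR3 and V gene but another J call counted as a different one, and without that condition 195 J-distal clonotypes were in both mice.

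J-distal genes, with the IGKV10, IGKV17 and IGKV19 families left out, made up a similar part of both kappa repertoires. They held 18.2% of the clonotypes in the iB library (95% Wilson interval 16.5 to 20.05) and 19.2% in the B6 library (17.4 to 21.1). The difference of -0.956 percentage points had a 95% Newcombe interval of -3.54 to 1.62, which includes 0. By reads, the shares were 15.9% and 17.4%, from totals of 562884 and 534314 kappa reads. The left-out IGKV17-121, 2685 kb from IGKJ1 and within the members' stretch, held 5.49% of reads in the iB library and 8.3% in the B6 library. The left-out IGKV10-96, numbered at the threshold and 2090 kb from IGKJ1, held 5.01% and 6.26%. Both count among the other clonotypes. In RNA from a pool of cells, fewer cells with a given join and less kappa RNA per cell cannot be told apart. Without the shared clonotypes, 145 of 924 clonotypes (15.7%, 13.5 to 18.2) and 139 of 802 (17.3%, 14.9 to 20.1) were J-distal. Intervals cover counting error over clonotypes only, because each mouse has 1 kappa library. Read shares have no interval, because the reads carry no described molecular identifiers and are not independent molecules. The 10 J-distal clonotypes with the most reads held 30.9% of the J-distal reads in the iB library and 31% in the B6 library. Members had a median of 34 and 41 reads per clonotype, beside 44 and 36 for other clonotypes.

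Across single genes, no tested J-distal gene was called as different between the libraries in clonotype number. Of the 22 members, 15 had at least 20 clonotypes in both libraries together and were tested by Fisher's exact test (two-sided, Benjamini-Hochberg over all 69 such IGKV genes), and 0 passed an adjusted p of 0.05. The background was 0% of all genes tested, with 2 of 69 genes and 0 of the 15 members at an unadjusted p under 0.05. At least 2-fold clonotype shares were seen in 0 members, against 2.9% of all genes tested. The ratio of clonotype shares, iB-μMT over B6, ran from 0.622 to 1.4 over the 15 members, with a median of 0.89 beside 0.973 over all genes tested. Every one of the 15 intervals of the difference included 0. The largest differences were those of IGKV14-111, 39 against 26 clonotypes (0.612 percentage points, interval -0.295 to 1.53), and of IGKV9-124, 12 against 18 (-0.401 points, -1.07 to 0.224). Without the shared clonotypes, IGKV14-111 had 21 and 8 clonotypes and was not called (adjusted p = 0.361 by Fisher's exact test), and IGKV9-124 had 6 and 12, too few to be tested. These intervals do not show that the genes were used alike.

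The IGKV1 family was the largest of the 8 J-distal families. Its 7 genes held 139 clonotypes and 6.03% of the kappa reads in the iB library, and 140 clonotypes and 7.55% in the B6 library. IGKV1-110 had 35 and 39 clonotypes and 1.68% and 2.14% of the reads. IGKV1-117 had 27 and 29 clonotypes and 2.03% and 2.73% of the reads. IGKV1-135, the member next to the far end, had 35 clonotypes in each mouse and 1.95% and 2.3% of the reads. These 3 genes ranked between 8 and 20 among all IGKV genes by reads, and each had the larger read share in the B6 library. IGKV1-99 had 14 and 13 clonotypes, with 0.198% and 0.1% of the reads. IGKV1-133 had 11 clonotypes in each mouse, but 0.0293% of the reads in the iB library and 0.125% in the B6 library. Similar clonotype numbers thus went with unequal reads in both of these minor genes, in opposite directions. With shared clonotypes left out, the family had 64 and 65 clonotypes and 2.99% and 4.84% of the remaining reads.

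The assignment within this family was close. IGKV1-117 was listed as a further hit for 33 of 35 and 37 of 39 IGKV1-110 clonotypes, and IGKV1-133 for 32 of 35 and 35 of 35 IGKV1-135 clonotypes. In the other direction, IGKV1-110 was listed for 26 of 27 and 29 of 29 IGKV1-117 clonotypes. IGKV1-135 was listed for 8 of 11 and 10 of 11 clonotypes of the minor gene IGKV1-133. Over the first 23 bases of CDR3, the leading clonotypes of IGKV1-110 and IGKV1-117 differed at 3 bases, and those of IGKV1-135 and IGKV1-133 at 2. No J-distal clonotype had a tie for its best V hit. Only 1 member clonotype in the iB library and 2 in the B6 library listed a gene outside the J-distal set as a further hit.

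The IGKV14 family held 71 clonotypes in the iB library and 60 in the B6 library. IGKV14-111 had 1.75% and 1.84% of the reads, which were closer than its clonotype numbers. IGKV14-100 showed the opposite, with 11 and 12 clonotypes but 1.69% and 0.948% of the reads. Without its leading clonotype, IGKV14-100 had 1.12% and 0.64%. Its order turned when the shared clonotypes were left out, with 4 and 5 clonotypes and 0.306% and 0.776% of the remaining reads, and that of IGKV14-111 turned as well, to 1.23% and 0.27%. IGKV14-126 had 21 and 22 clonotypes and 0.367% and 0.447% of the reads, although RefSeq lists it as a pseudogene.

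The IGKV9 family held 35 and 45 clonotypes. IGKV9-120 had 14 and 19 clonotypes and 1.37% and 1.8% of the reads. IGKV9-124 had 0.28% of the reads in the iB library and 0.809% in the B6 library, a ratio of 0.347 that was the lowest among the tested members after that of IGKV1-133 (0.234). Its leading clonotype had 553 and 1171 reads, and without it the gene had 0.182% and 0.589%. The median over its clonotypes was 35 and 38.5 reads, so the gap lay in the clonotypes with many reads and in the number of clonotypes. IGKV9-124 had 0.177% and 1.11% of the remaining reads when the shared clonotypes were left out. The leading clonotypes of IGKV9-120 and IGKV9-124 differed at 1 of the first 23 bases.

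The smaller families were present in both mice as well. IGKV2-109 had 20 and 16 clonotypes with 0.572% and 0.503% of the reads. IGKV15-103 had 14 and 13 clonotypes with 1.37% and 0.991%. IGKV16-104 had 14 and 11 clonotypes with 1.29% and 0.855%. In the iB library the last 2 genes thus had read shares close to that of IGKV9-120, and in the B6 library lower ones. When shared clonotypes were left out, IGKV16-104 had 0.223% and 0.302% of the remaining reads, and IGKV15-103 had 0.415% and 0.0977%. Of the 21 members that still had clonotypes in both libraries, 6 turned the order of their read shares. IGKV12-98 had 0.601% and 0.7% of the reads, and IGKV11-125 had 9 and 12 clonotypes with 0.0879% and 0.127%. The other 7 members had 2 to 17 clonotypes in both mice together and at most 0.583% of the reads in either. IGKV11-106 had 2 clonotypes in the iB library and 0 in the B6 library, with 0 of 534314 reads. If each read were an independent draw, this would allow a share of up to 0.000561%. Reads are not independent molecules, so the limit is wider than that.

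**Figure D1:**
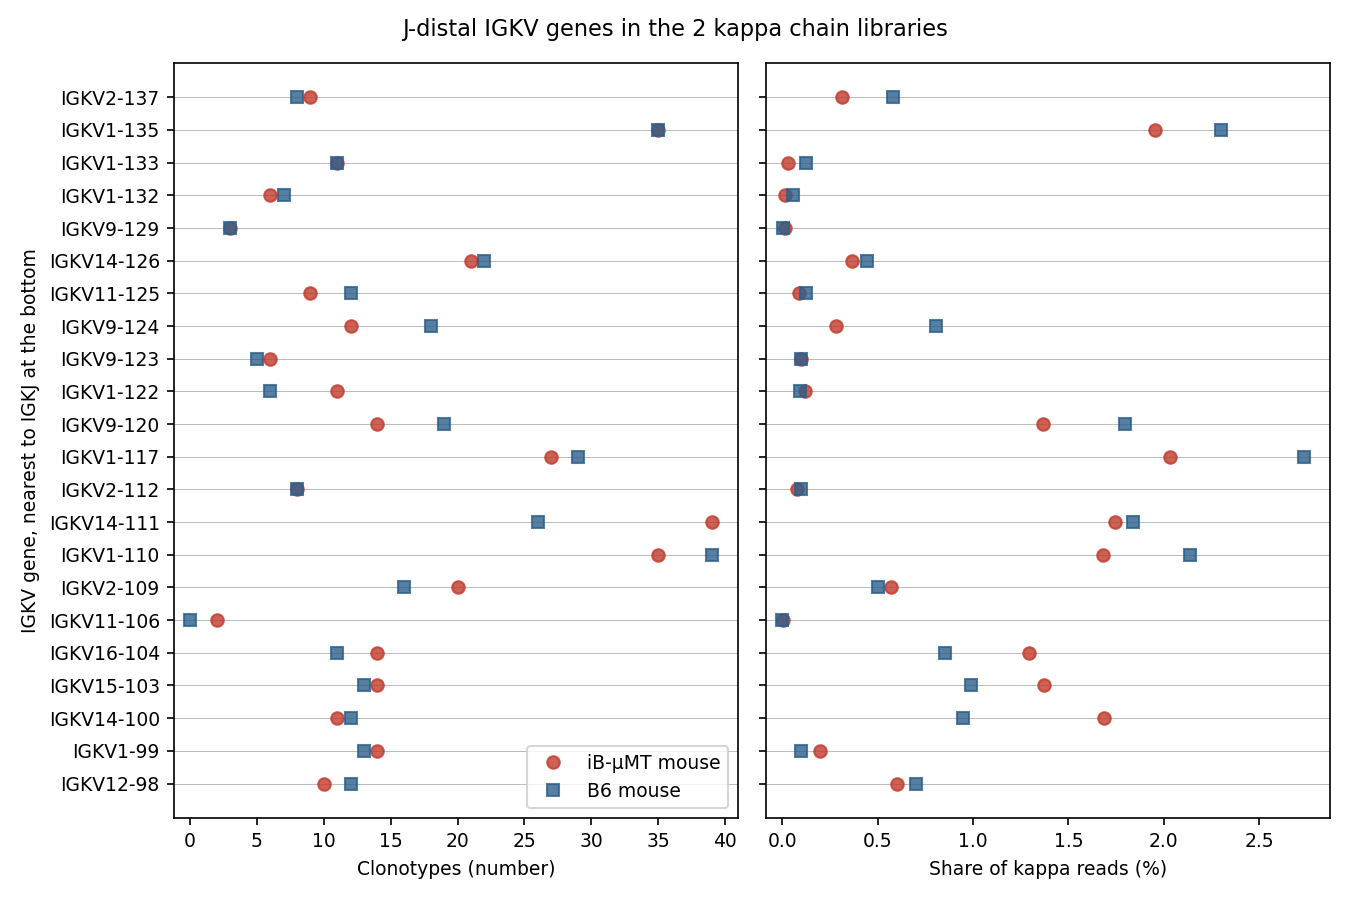
Number of clonotypes (left) and share of kappa reads in percent (right) of the 22 J-distal IGKV genes in the iB library (circles) and the B6 library (squares), 1 library each, in the order of the locus. IGKV14-111 has 39 against 26 clonotypes, and the read share of IGKV14-100 (1.69% against 0.948%) lies on the other side from that of IGKV9-124 (0.28% against 0.809%). All clonotypes are plotted, and without those found in both mice the order of IGKV14-100 turns (0.306% against 0.776% of the remaining reads).

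Read shares are given next by the position of the gene, split at number 110. The split was chosen after the values were seen and was not tested. Among the genes numbered 98 to 109, 5 of the 6 found in both mice had the larger read share in the iB library, with a median ratio of 1.45 (range 0.858 to 1.97). Among the genes numbered 110 to 137, 13 of 15 had the larger share in the B6 library, with a median ratio of 0.783 (0.234 to 2.07). The nearer genes together held 5.73% of the kappa reads in the iB library and 4.1% in the B6 library, and the farther genes 10.2% and 13.3%. Clonotype numbers were closer, 85 and 77 for the nearer genes and 246 and 248 for the farther ones. Among 19 other IGKV genes numbered 68 to 92, the nearest to the members outside the left-out families, 14 had the larger read share in the iB library. Their median ratio was 1.55. Across the 74 other IGKV genes found in both mice, 48 had the larger read share in the iB library, with a median ratio of 1.17.

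Most of these reads belonged to clonotypes found in both mice, so their ratios are largely the same values and no separate support. Of the 48 shared clonotypes of the nearer genes, 39 had the larger read share in the iB library, with a median log2 ratio of 0.47 (quartiles 0.04 to 0.90). Of the 138 shared clonotypes of the farther genes, 32 did, with a median log2 ratio of -0.40 (quartiles -1.01 to -0.03). Without the shared clonotypes, the nearer genes held 1.94% and 1.85% of the remaining reads, which removed most of the gap, and the farther genes 5.88% and 8.35%. By gene, 3 of 6 nearer genes and 6 of 15 farther genes then had the larger share in the iB library. The remaining clonotypes numbered 37 and 29 for the nearer genes and 108 and 110 for the farther ones. In the 22 genes, read shares had a Spearman correlation of 0.942 between the mice, and 0.508 without the shared clonotypes, as a description of genes measured in the same libraries.

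CDR3 length was the feature in which J-distal clonotypes stood apart most clearly. In the iB library, 195 of 331 J-distal clonotypes (58.9%, Wilson interval 53.5 to 64.1) had a CDR3 of 11 amino acids, against 663 of 1487 other IGKV clonotypes (44.6%, 42.1 to 47.1). In the B6 library, these were 207 of 325 (63.7%, 58.3 to 68.7) against 679 of 1371 (49.5%, 46.9 to 52.2). The differences of 14.3 percentage points (Newcombe interval 8.38 to 20.1) and 14.2 points (8.19 to 19.9) both passed Fisher's exact test, with an adjusted p of 3.64e-05 in each mouse over 8 features in 2 libraries. Both longer and shorter sequences took smaller shares. In the iB library, 19.3% of J-distal and 27.8% of other clonotypes were longer than 11 amino acids and 21.8% and 27.6% were shorter. In the B6 library, 13.5% and 22.98% were longer and 22.8% and 27.5% shorter. Weighted by reads, 94.9% of J-distal reads against 84.1% of other reads had this length in the iB library, and 95.8% against 88.7% in the B6 library. The other clonotypes were not uniform in this share. It was 41.6% and 45.4% (iB and B6 library) for numbers 1 to 32, and 47% and 54.2% for 33 to 64. For numbers 65 to 95 it was 49.2% and 53.2%, nearer to the J-distal share than that of all others pooled. The left-out families had 39.4% and 44.5%. The test treats clonotypes as independent, although clonotypes of the same gene share the germline V end.

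Clonotypes found in both mice held much of this difference. Without them, the shares were 37.9% against 29.9% in the iB library (8.02 points, -0.167 to 16.7, adjusted p = 0.178) and 48.2% against 37.6% in the B6 library (10.6 points, 1.68 to 19.6, adjusted p = 0.165), neither of which passed Fisher's exact test. Only V genes whose reference sequence reaches 26 nucleotides into CDR3, which was the length for 15 of the 22 members, gave 15.7 and 17.5 points. Single genes ranged widely over all their clonotypes. The share of 11 amino acids lay between 34.3% (IGKV1-135) and 90.9% (IGKV1-133) over the 15 tested members in the iB library. It lay between 45.5% (IGKV16-104) and 91.7% (IGKV14-100) in the B6 library. Of the members with clonotypes, 16 of 22 in the iB library and 17 of 21 in the B6 library lay above the share of the other clonotypes. In the iB library, the members with the most clonotypes lay below it. They were IGKV14-111 (41% of 39 clonotypes), IGKV1-110 (40% of 35), IGKV1-135 (34.3% of 35) and IGKV1-117 (44.4% of 27). IGKV16-104 (35.7% of 14) and IGKV9-129 (33.3% of 3) lay below it too. In the B6 library, IGKV1-110 (46.2%) lay below, and IGKV14-111 (53.8%), IGKV1-135 (51.4%) and IGKV1-117 (62.1%) lay above.

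**Figure D2:**
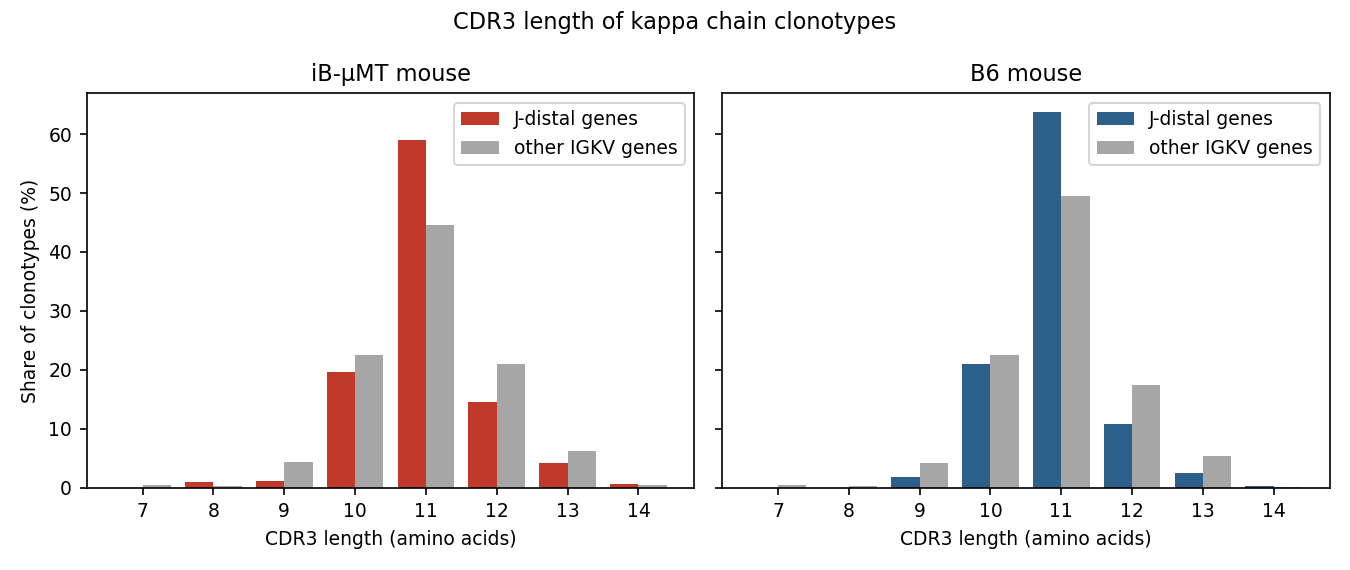
Share of clonotypes in percent by CDR3 length in amino acids (7 to 14 shown) for J-distal genes (coloured bars) and other IGKV genes (grey bars) in each mouse. The bar at 11 amino acids is higher for the J-distal genes, 58.9% against 44.6% in the iB library and 63.7% against 49.5% in the B6 library.

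The use of IGKJ genes by J-distal clonotypes did not pass the test in either mouse. IGKJ1, the J gene nearest to V, was used by 35% of J-distal and 29.8% of other clonotypes in the iB library (5.25 points, -0.229 to 11, adjusted p = 0.147 by Fisher's exact test). In the B6 library the shares were 35.1% and 29.9% (5.17 points, -0.396 to 11, adjusted p = 0.147 by Fisher's exact test). The difference had the same sign and size in both mice, but its intervals include 0. IGKJ5, the J gene farthest from V, was used by 23.6% against 25.02% and by 25.5% against 27.0%. IGKJ2 was used by 29% against 28.3% and by 25.8% against 27.4%, and IGKJ4 by 12.4% against 16.9% and by 13.5% against 15.7%. IGKJ4 use in the iB library had an unadjusted p of 0.0469 and an adjusted p of 0.147 by Fisher's exact test. By reads, IGKJ1 held 39.7% of J-distal against 29.9% of other reads in the iB library and 38.1% against 26.5% in the B6 library, and IGKJ5 held 20.1% against 30.9% and 19.7% against 34.6%. Without the shared clonotypes, IGKJ1 use was 35.2% against 28.5% and 35.3% against 28.5%, and IGKJ4 use was 11.7% against 19.5% and 14.4% against 17.5%, none of which passed the test.

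Single genes joined to all 4 functional IGKJ genes in most cases, 19 of 22 members in the iB library and 20 of 21 in the B6 library. Of 24 tests of 1 gene and 1 IGKJ gene over 6 members in the iB library and 20 tests over 5 members in the B6 library, 0 passed an adjusted p of 0.05, against backgrounds of 1.19% and 0% of all such tests. A single member test in each mouse had an unadjusted p under 0.05, and it was the same pair. IGKV1-135 joined IGKJ1 in 17 of 35 clonotypes of the iB library (48.6% against 30.4% of the remaining clonotypes, adjusted p = 0.49 by Fisher's exact test). It did so in 20 of 35 clonotypes of the B6 library (57.1% against 30.3%, adjusted p = 0.116 by Fisher's exact test). IGKJ1 joins held 59.2% and 56.3% of its reads. IGKV2-137, at the far end of the locus, had 9 and 8 clonotypes and was not tested. Of these, 2 and 3 joined IGKJ1 and 2 in each mouse joined IGKJ5, but IGKJ1 joins held 3.38% and 1.64% of its reads and IGKJ5 joins 50.4% and 43.3%.

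**Figure D3:**
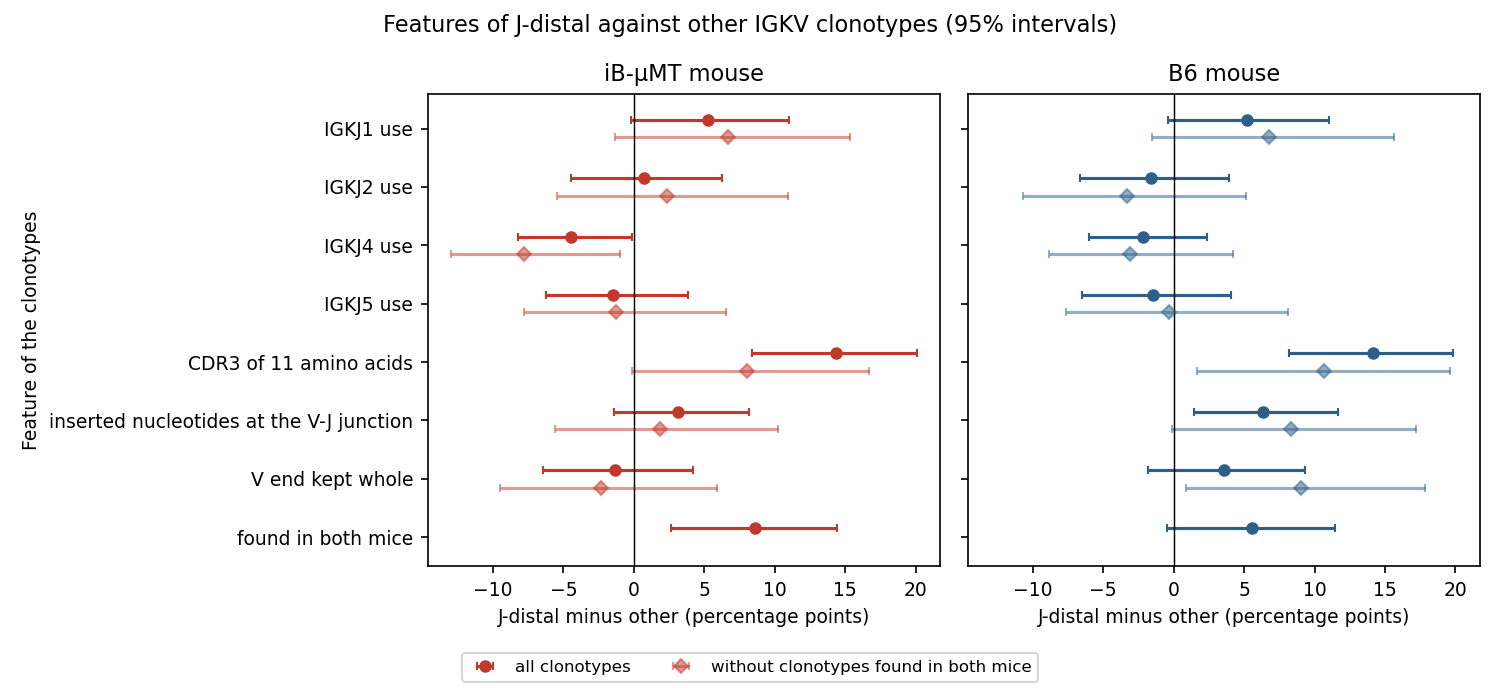
Difference in percentage points between J-distal and other IGKV clonotypes for 8 features in each mouse, with 95% Newcombe intervals, over all clonotypes (circles) and without clonotypes found in both mice (diamonds). The CDR3 of 11 amino acids lies at 14.3 and 14.2 points over all clonotypes and at 8.02 and 10.6 points without the shared ones.

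Recurrence between the mice was higher among J-distal clonotypes in the iB library, and the difference missed the threshold in the B6 library. The shares were 56.2% against 47.6% among the clonotypes of the iB library (8.58 points, 2.63 to 14.4, adjusted p = 0.0274 by Fisher's exact test), and 57.2% against 51.6% among those of the B6 library (5.59 points, -0.449 to 11.5, adjusted p = 0.147 by the same exact test). These shares are tied to each other, since each shared clonotype is counted in both libraries. Within the others, the left-out families had 55.6% in the iB library, close to the J-distal share, and 51.0% in the B6 library. The remaining genes had 47.3% and 53.4% (numbers 1 to 32), 50.2% and 53.7% (33 to 64), and 41.0% and 45.7% (65 to 95). In the iB library the call was lost among clonotypes with a single V hit listed (4.86 points, adjusted p = 0.619 by Fisher's exact test) and among V genes with 26 reference nucleotides in CDR3 (6.56 points, adjusted p = 0.277). It was also lost when clonotypes were matched by CDR3 and V gene whatever the J call (58.9% against 51.0%, 7.87 points, adjusted p = 0.0503 by Fisher's exact test). By gene, the largest numbers of shared clonotypes were 23 for IGKV1-110, 18 for IGKV14-111 and 17 for IGKV1-135. IGKV9-129, with 3 clonotypes in each mouse, shared none. The interaction of library and J-distal position did not pass the likelihood ratio test for any of the 7 other features, with a lowest adjusted p of 0.971.

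Kappa joins without added bases were the rule in both sets. Bases between the V and J ends were present in 69 of 331 J-distal clonotypes (20.8%) against 17.8% of the others in the iB library (3.09 points, -1.42 to 8.14, adjusted p = 0.334 by Fisher's exact test). In the B6 library they were present in 80 of 325 (24.6%) against 18.3% (6.31 points, 1.45 to 11.6, adjusted p = 0.0503 by Fisher's exact test). Without the shared clonotypes, the shares were 28.3% against 26.4% and 37.4% against 29.1%. IGKV1-110, IGKV1-117 and IGKV14-126 held 37 of the 69 and 39 of the 80 clonotypes. Without those 3 genes, chosen after their values were seen, the J-distal shares were 12.9% and 17.4%. The V end was kept whole in 27.5% of J-distal against 28.9% of other clonotypes in the iB library and in 31.4% against 27.8% in the B6 library, with adjusted p values of 0.681 and 0.334 by Fisher's exact test. Without the shared clonotypes these were 25.5% against 27.9% and 34.5% against 25.5% (adjusted p = 0.78 and 0.165 by Fisher's exact test). Among V genes with 26 reference nucleotides in CDR3, shared clonotypes included, the differences were -5.46 points (-11.3 to 1.16) and -0.0399 points (-6.43 to 7.1).

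Added bases were more frequent in V genes with a shorter reference, in J-distal and other genes. The reference of 6 members (IGKV1-110, IGKV1-117, IGKV2-112, IGKV9-120, IGKV9-123 and IGKV9-124) reaches 24 nucleotides into CDR3, and 34.3% and 39% of their clonotypes had added bases, beside 27.8% and 26.3% for other genes of that length, a difference that was not tested. For the 15 members with 26 nucleotides, the shares were 14.4% and 15.8%, beside 15.5% and 16.7% for other genes of that length. The difference between J-distal and other clonotypes with 26 nucleotides was then -1.03 points (-5.82 to 4.73) in the iB library and -0.932 points (-6.14 to 5.31) in the B6 library. In the 6 genes with 24 nucleotides, the first added base was C in all 30 and all 40 clonotypes that had a whole V end and added bases. In other IGKV genes with 24 nucleotides it was C in 21 of 27 and 17 of 23. In members with 26 nucleotides it was C in 0 of 4 and 0 of 9. Examples are the joins below, each among the 3 J-distal clonotypes with the most reads that were listed with that J call in 1 mouse only. Capitals mark the bases between the V and J ends, the same pair in each.
IGKV1-117 to IGKJ5, B6 library: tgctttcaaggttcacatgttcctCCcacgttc
IGKV9-120 to IGKJ2, B6 library: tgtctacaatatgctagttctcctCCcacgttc
IGKV1-110 to IGKJ2, iB library: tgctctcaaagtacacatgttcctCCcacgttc
They had 350, 259 and 188 reads. The second and the third were also present in the other mouse with an IGKJ5 call, with 153 and 254 reads, so their listing in 1 mouse rests on the J call. Whether these bases were added at the join or belong to the germline V end was not tested.

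IGKV14-126 clonotypes fell into 2 forms in both mice. In the first form, 10 clonotypes of the iB library and 13 of the B6 library had V alignment scores of 1692 to 1937 and 1789 to 1915, and at most 1 base between the V and J ends. In the second form, 11 and 9 clonotypes had V scores of 887 to 1056 and 886 to 1062. All of these kept 9 bases of V and had 13 to 17 bases before J that began with the same 12 letters, whichever of the 4 IGKJ genes followed. The leading clonotypes of the second form are shown because the run recurs, with the bases between the V and J ends in capitals.
IGKV14-126 to IGKJ1: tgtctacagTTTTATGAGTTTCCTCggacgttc
IGKV14-126 to IGKJ2: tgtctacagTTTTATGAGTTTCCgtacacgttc
IGKV14-126 to IGKJ4: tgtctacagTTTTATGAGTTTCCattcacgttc
IGKV14-126 to IGKJ5: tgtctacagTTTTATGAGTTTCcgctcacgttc
The second form held 647 of 2068 IGKV14-126 reads (31.3%) in the iB library and 798 of 2388 (33.4%) in the B6 library, and 8 of its clonotypes were found in both. Among those found in 1 mouse only, 3 of 6 and 1 of 7 IGKV14-126 clonotypes were of the second form. Over the first 23 bases of CDR3, its leading clonotype differed from that of the first form at 7 bases and from that of IGKV14-111 at 2. The bases counted as added in IGKV14-126 thus began with a fixed run, and which V gene the second form derives from was not tested. Only clonotypes with a V score of at least 1300, a limit chosen after the values were seen, gave 18% of J-distal and 17.5% of other clonotypes with added bases in the iB library and 20.7% and 18% in the B6 library.

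**Figure D4:**
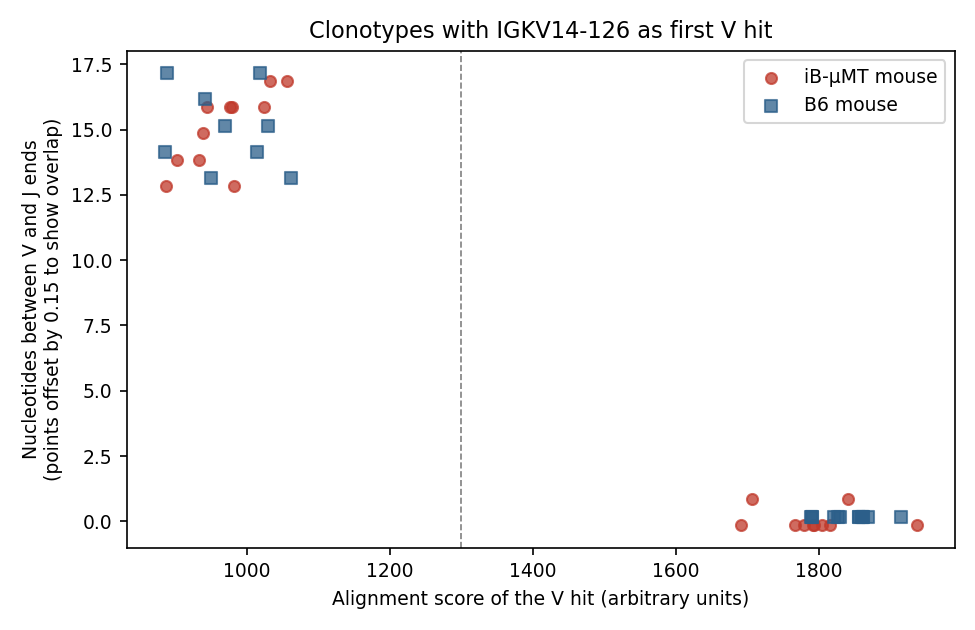
V alignment score (horizontal axis) against the number of nucleotides between the V and J ends (vertical axis) for each IGKV14-126 clonotype of the iB library (circles) and the B6 library (squares), with the score of 1300 as a dashed line. In both mice the clonotypes form 2 groups, scores of at most 1062 with 13 to 17 nucleotides and scores of at least 1692 with at most 1.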

How the data were processed

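The authors sorted naïve FO B cells from 1 mouse per group, made libraries by 5′ RACE from total RNA, read them on a MiSeq, and ran MiXCR to assemble clonotypes. The deposited count of reads per clonotype was used as given, without normalization, beside the V, J and C hits, CDR3 and segment ends. The labels list the build mm10. The V reference library of MiXCR is not given in the sources used here. The genes were placed with the RefSeq table of GRCm38.p6, which matched all 102 IGKV names.

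The first hit gave the V gene, and each clonotype was counted once unless reads are named. The 6 libraries held 18182 clonotypes. The kappa libraries held 562884 reads (iB-μMT mouse) and 534314 reads (B6 mouse), and 3 reads correspond to 0.000533% and 0.000561%. Added bases were those between the V and J ends. Shares have 95% Wilson intervals, differences Newcombe intervals, and comparisons Fisher's exact test (two-sided) with Benjamini-Hochberg adjustment at 0.05. Interactions were tested in logistic models. Single genes were tested with at least 20 clonotypes. All 22 members are listed or counted, and those with at least 20 clonotypes are named with their values.

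The members, lists and tests were chosen with earlier results of these data known. The alternatives were at least 2 or 5 reads, equal read numbers, shared clonotypes left out, near-identical clonotypes merged (1 mismatch, at least 10 times the reads), productive clonotypes, a unique best V hit, weighting by reads, the minimum per gene, and other clonotypes without IGKV10, IGKV17 and IGKV19. Limits on V score, reference length and single V hits, and matching of shared clonotypes whatever the J call, were chosen after seeing the data. The tests were checked on simulated data. For the recovery of changed genes, the simulated libraries had 10 times the clonotypes of the B6 library. That check does not show what the gene test can detect at the size of these libraries. Python 3.11.15, NumPy 2.4.6, SciPy 1.17.1, pandas 2.3.3 and statsmodels 0.14.6 were used.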

Additional observations from a re-analysis of the deposited data

How the results depend on the processing

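No paired analysis was possible because each group has 1 kappa library and the labels give no replicate numbers, and for the same reason no library could be left out. Under every alternative run, 0 J-distal genes passed the test between the libraries, 0 interactions passed and 0 J-distal pairs of a V and a J gene passed. The difference in the J-distal share (iB minus B6) ran from -1.78 to -0.00929 points and stayed inside its interval. Leaving out the clonotypes found in both mice ended the calls on CDR3 length (8.02 points in the iB library and 10.6 in the B6 library), and so did leaving out those matched by CDR3 and V gene whatever the J call (6.36 and 9.01), while the other alternatives kept both. The call on clonotypes found in both mice, iB library, was lost with 26 reference nucleotides (6.56 points) with a single V hit listed (4.86 points) and with matching whatever the J call (7.87 points). In the B6 library, added bases passed the test with at least 2 reads (8.22 points), at least 5 reads (7.14), near-identical clonotypes merged (8.29), productive clonotypes only (6.28), and other clonotypes without IGKV10, IGKV17 and IGKV19 (7.02). They turned in sign with 26 reference nucleotides (-1.03 points in the iB library and -0.932 in the B6 library) and with a single V hit listed (-3.6 and -0.66), and in the iB library without clonotypes matched whatever the J call (-1.6). Other sign changes were near 0 and concerned differences that never passed. IGKJ2 use in the iB library was -0.379 points with at least 5 reads and -0.587 after merging, IGKJ4 use in the B6 library 0.0204 points with a single V hit, IGKJ5 use in the B6 library 0.106 points without clonotypes matched whatever the J call, and whole V ends in the B6 library -0.0399 points with 26 reference nucleotides. By gene, these were IGKV1-133 (0.0215 points at V scores of at least 1300), IGKV1-99 (-0.00459 points with at least 2 reads and -0.0296 with a single V hit), IGKV2-109 (-0.00265 after merging) and IGKV15-103 (-0.047 after merging, -0.0476 at V scores of at least 1300 and -0.0296 with a single V hit). Genes of the whole table with a 2-fold clonotype share, 2 at a minimum of 20 clonotypes, were 6 without the shared clonotypes (7 when matched whatever the J call), 6 at a minimum of 5, 15 with no minimum, 1 with at least 2 or 5 reads, with productive clonotypes or at V scores of at least 1300, and 0 with a single V hit. Of these, 1 was J-distal without the shared clonotypes under either matching (IGKV14-111) and 1 with no minimum (IGKV11-106). Calls of a V and a J gene over all IGKV genes, 2 in the iB library and 0 in the B6 library, became 1 in the iB library without the shared clonotypes, 0 after merging, and 1 in the B6 library with at least 2 or 5 reads. The gap of the nearer J-distal genes in reads, 1.64 points, was 0.0993 without the shared clonotypes (0.122 when matched whatever the J call), and that of the farther genes, -3.07, was -1.5 with that matching and -1.84 with a single V hit. The causes were not tested. The number of clonotypes limits the precision, and reads of 1 library per mouse give no spread between mice.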

Other observations

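Mismatches to the V reference inside CDR3 were present in 28 of the 331 J-distal clonotypes of the iB library (8.46%) and in 50 of the 325 of the B6 library (15.4%). They held 2.12% and 1.74% of the J-distal reads. Among the other IGKV clonotypes, 11.8% and 15.1% had such mismatches. Stop codons were present in 2 and 3 J-distal clonotypes (0.604% and 0.923%), beside 0.941% and 1.31% of the others. J-distal clonotypes with a single read made up 6.65% and 7.08%, beside 5.78% and 6.86% of the others.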
